A study of Saccharomyces cerevisiae with 6 samples.

Results

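The response of each yeast gene to 9 mM caffeine was compared between cells whose TOR1 kinase carried a pair of amino acid substitutions and cells with the WT kinase. Both strains were Saccharomyces cerevisiae of the W303a laboratory background with the chromosomal TOR1 gene deleted. The mutant strain carried the plasmid p3HA-TOR1 [I1954V + W2176R], which encodes Tor1 with a haemagglutinin tag and the substitutions I1954V and W2176R. The WT strain carried p3HA-TOR1, which encodes the tagged protein without them. The deletion, the tag and the plasmid were therefore common to the mutant and to WT. The sources used here do not give the medium, the time in caffeine, the promoter of the plasmid gene or the number of transformants. Of the 6 two-colour arrays of the study, which covered 3, 6 and 9 mM in each strain, the comparison used the 2 arrays at 9 mM. It held every gene with a value on both of them, 5449 of 5561 named genes.

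Each array set polyadenylated RNA of caffeine-treated cells, labelled with Cy5, against RNA of untreated cells of the same strain, labelled with Cy3. The deposited values were log2 ratios of the 2 channels. No source used here states their sense. It was taken as caffeine over untreated, which is likely but not certain, and with the opposite sense each sign below would be inverted. The median over named genes was subtracted from each array. Before that step the medians were -0.54 on the mutant array and -0.38 on the WT array, so a difference taken without centring would lie 0.16 lower for every gene. A value below is a centred log2 ratio unless stated otherwise, and a difference is the mutant value minus the WT value. Because no array set one strain against the other, a difference cannot tell a caffeine level that differed between strains from an untreated level that differed, and a ratio cannot tell less RNA per cell from a change in which cells made up the culture.

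There was 1 array for each strain and dose, so a difference at 9 mM has no replicate and no test. The only test drew on all 6 arrays. For each of the 5212 genes with a value on all of them, limma fitted a slope of log2 ratio on dose for each strain, with 3 arrays per strain, and tested mutant minus WT. A gene is called lower or higher in the mutant where the Benjamini-Hochberg adjusted p of that test was below 0.05. The 9 mM arrays weigh most in this fit, so for genes picked by their 9 mM values a call partly restates the choice. The arrays of 1 strain may share their untreated RNA, whose spread is not in these p-values, and nothing in the labels says that the doses were separate cultures. Among the 34 genes with more than 1 spot, the SD of the 9 mM difference between spots of a gene had a median of 0.52. A single difference of about that size was therefore within the spread of repeated spots on the same 2 arrays.

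The values on both arrays also depended on the number of the probe in the deposited table. When probes were grouped by the remainder of their number on division by 96 (63 to 68 probes per class), class membership accounted for 38.7% of the variance on the mutant array, 12.9% on the WT array and 15.2% of the variance of the difference, where the number of classes alone gives 1.53 to 1.57%. Class medians spanned 2.41 on the mutant array and 1.53 on the WT array. On the mutant arrays at 3 and 6 mM the shares were 48.4% and 54.1%, against 10.04% and 14.1% on the WT arrays at 3 and 6 mM. The pattern was found after the data had been seen, and what produced it was not tested. Values after centring each array within these classes are given below where they change what a number shows, and are called class-centred.

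**Figure D1:**
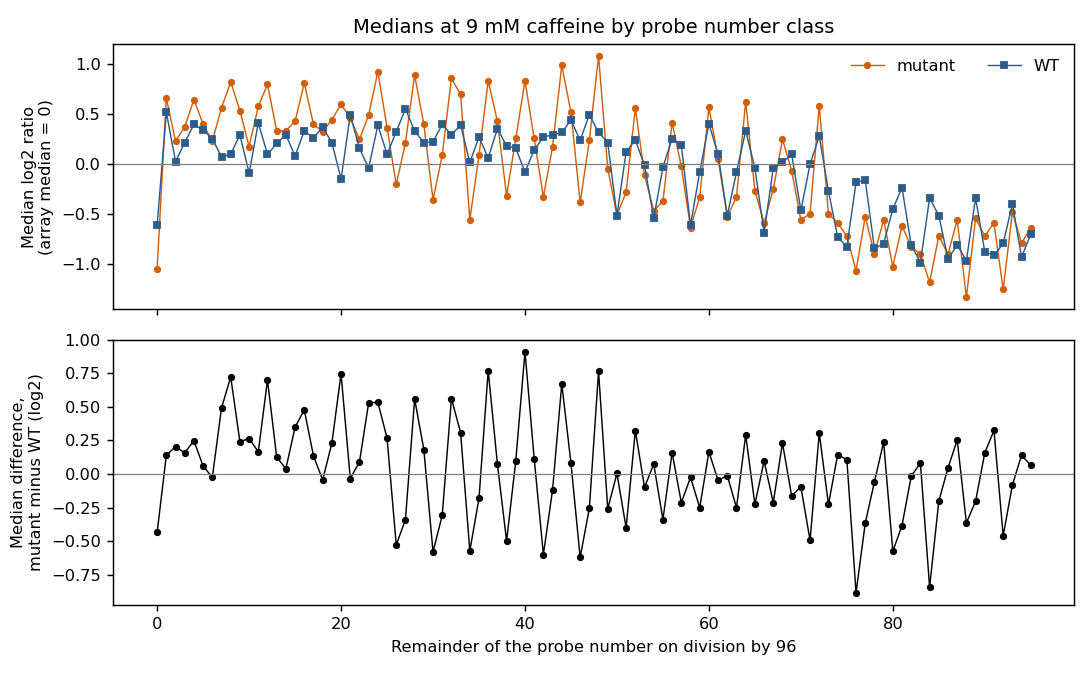
Median centred log2 ratio at 9 mM caffeine of the probes in each class of probe number (remainder on division by 96), for the mutant and the WT array (upper panel), and the median difference, mutant minus WT (lower panel). Both arrays run lower at remainders above about 70, and the mutant medians swing more widely, over 2.41 log2 units against 1.53 in WT.

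TOR complex 1, which contains Tor1 or its paralogue Tor2, is a kinase complex that holds yeast in a growth state while nitrogen is plentiful. It promotes transcription of ribosomal protein genes and ribosome assembly factors, and it keeps the GATA factors Gln3 and Gat1 out of the nucleus, so that genes for poor nitrogen sources stay repressed (nitrogen catabolite repression). It also restrains the general stress factors Msn2 and Msn4. Caffeine, a methylxanthine, inhibits the complex, and also stimulates the cell wall integrity kinase pathway.

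At 9 mM, 679 genes (12.5%) were at least 2-fold lower in the mutant than in WT, and 669 genes (12.3%) were at least 2-fold higher. The values just inside and outside the lower limit were -1.004 for SAS3 and -0.999 for PRP3, and for the upper limit 1.01 for TRM7 and 0.9996 for TAF9. By the slope test, 121 of 5212 genes (2.32%) were called lower in the mutant and 101 (1.94%) higher. Class-centred, 560 genes were at least 2-fold lower at 9 mM, 455 of them among the 679, and 603 were at least 2-fold higher, 468 of them among the 669.

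Genes shared by the strains were separated from genes that stood out in 1 strain. A gene was shared where both strains were at least 2-fold from the array median on the same side, and it belonged to 1 strain only where that strain was at least 2-fold away and the other within 0.5 log2 of the median. Of 5449 genes, 461 (8.46%) were shared higher and 450 (8.26%) shared lower. In the mutant only, 168 (3.08%) were higher and 140 (2.57%) lower, against 241 (4.42%) higher and 253 (4.64%) lower in WT only. Another 4 genes (0.0734%) were at least 2-fold higher in the mutant and 2-fold lower in WT, and 12 (0.22%) the other way round. The remaining genes were under 2-fold in both strains (2889, 53%) or lay between the classes (831, 15.3%).

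The shared genes made up 57.9% of the 796 genes (14.6%) at least 2-fold higher in the mutant, and 49.0% of the 941 genes (17.3%) at least 2-fold higher in WT. On the lower side they made up 59.4% of 757 genes (13.9%) in the mutant and 45.3% of 993 genes (18.2%) in WT. The mutant array had the smaller spread, with an SD of 0.988 over genes against 1.20 in WT. Class-centred, the shared classes held 334 higher and 247 lower genes. The mutant-only classes then held 63 higher and 71 lower genes, and the WT-only classes 301 higher and 293 lower genes. Of the 168 mutant-only higher genes just 25 kept that class after class-centring, and of the 140 mutant-only lower genes 22, whereas 117 of the 241 WT-only higher and 97 of the 253 WT-only lower genes did.

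The lower doses of the same strain gave a further view of the 1-strain classes. At 6 mM, 29 of 154 mutant-only higher genes with values at all doses (18.8%) were at least 2-fold higher in the mutant, and 74 of 139 mutant-only lower genes (53.2%) were at least 2-fold lower. In WT, 101 of 236 WT-only higher genes (42.8%) and 117 of 249 WT-only lower genes (47.0%) were 2-fold on the same side at 6 mM. A fit of the same slopes to the 3 and 6 mM arrays alone, which shares no array with the classes, called 411 of 5212 genes (7.89%) lower in the mutant and 210 (4.03%) higher. In that fit 49 of 229 tested WT-only higher genes (21.4%) were called lower and 66 of 243 WT-only lower genes (27.2%) higher. Of the mutant-only genes, 33 of 136 on the lower side (24.3%) were called lower and 19 of 152 on the higher side (12.5%) higher. The untreated RNA of a strain may still be common to these arrays and those at 9 mM. The probe number pattern is also common to them, with 48.4% and 54.1% of the variance on the mutant arrays at 3 and 6 mM. This fit was not class-centred, so its calls are not free of that pattern and are no independent check of the classes.

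**Figure D2:**
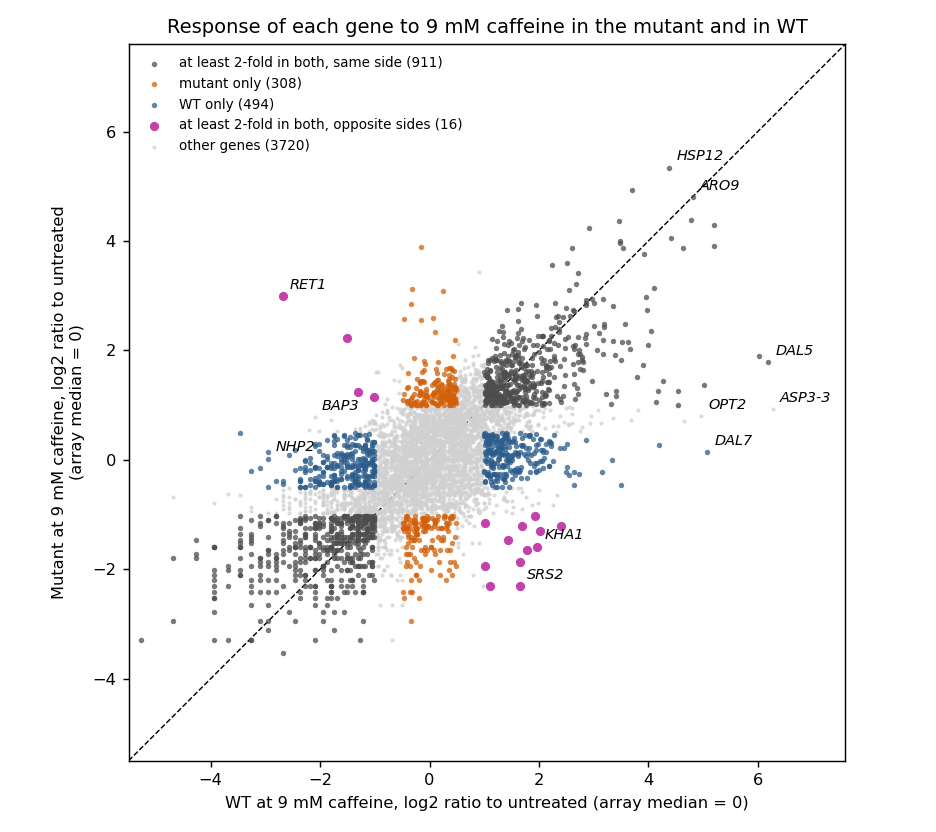
Centred log2 ratio of each gene at 9 mM caffeine in the mutant (vertical axis) against WT (horizontal axis), 1 array per strain and 1 point per gene. Dark points are shared genes, orange points mutant only, blue points WT only, purple points opposite. The dashed line marks equal values, and DAL5, DAL7, ASP3-3 and OPT2 lie far to its right, near or below 2 in the mutant and above 4 in WT.

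Genes of nitrogen catabolite repression were among those that stood furthest below WT in the mutant, and several of them had WT values among the highest on the array. Of 13 measured transporters of this group, 7 (53.8%, against 12.5% of all genes) were at least 2-fold lower in the mutant and none at least 2-fold higher. By the slope test 5 of 12 were called lower and 0 higher, against 2.32% and 1.94% of all tested genes. The group median was 0.80 in the mutant and 1.77 in WT, with a median difference of -1.02, against 0.06 over all genes. The median difference was -1.15 at 6 mM and 0.28, of the opposite sign, at 3 mM. Class-centred, the median difference at 9 mM was -0.88.

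DAL5 (YJR152W), which encodes the allantoate permease, had log2 ratios of 1.16, 1.10 and 1.79 in the mutant at 3, 6 and 9 mM, against 3.96, 5.74 and 6.19 in WT at 3, 6 and 9 mM. Each mutant value lay below every WT value. The 9 mM difference was -4.40, a 21.2-fold lower ratio in the mutant, and the slope difference was -0.60 ± 0.09 log2 per mM (SE, n = 3 arrays per strain) with limma adjusted p = 0.00691. OPT2, an oligopeptide transporter, stood at 0.75, 0.49 and 0.80 in the mutant over the rising doses, against 2.31, 3.97 and 4.97 in WT. The mutant values of OPT2 were nearly flat while those of WT climbed at each dose, and its slope difference was -0.50 ± 0.06 with limma adjusted p = 0.00153. DAL4, the allantoin permease, had 0.82, 0.49 and 0.99 in the mutant and 1.34, 3.62 and 4.53 in WT (limma adjusted p = 0.00357). UGA4, the permease for 4-aminobutyrate, had 0.29, 0.68 and 1.45 in the mutant and 0.45, 3.49 and 4.26 in WT, where the strains were near each other at 3 mM and apart at 6 and 9 mM (limma adjusted p = 0.0155). PTR2, the peptide transporter, had 0.90 in the mutant and 3.08 in WT at 9 mM (limma adjusted p = 0.0295).

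The other transporters of this group, named here after their values were seen, were not called, and 4 of the 13 lay above WT at 9 mM. MEP2, the high-affinity ammonium permease, was at -0.72 in the mutant and 1.35 in WT at 9 mM, with limma adjusted p = 0.0973. Its paralogues MEP1 and MEP3 had differences of 0.82 and 0.99, above 0. GAP1, the general amino acid permease, was below the array median in both strains, at -0.02, -0.72 and -0.90 in the mutant and -1.21, -2.29 and -1.87 in WT, with limma adjusted p = 0.127. The classical targets of 1 repression system thus lay on both sides of WT, with none of those above WT past the test over all doses. In the fit to 3 and 6 mM alone, 5 of 12 tested transporters (41.7%) were called lower and 2 (16.7%) higher. Over all genes that fit called 7.89% lower and 4.03% higher. DIP5, the dicarboxylic amino acid permease, was high in both strains, at 2.07 in the mutant and 2.63 in WT.

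**Figure D3:**
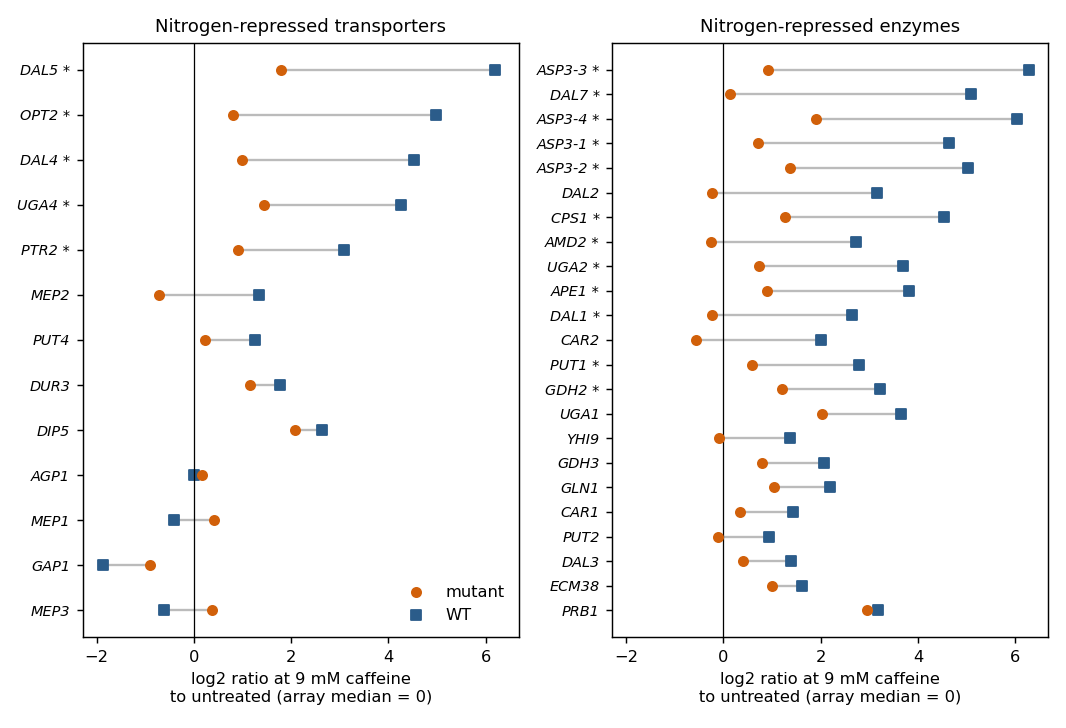
Centred log2 ratio at 9 mM caffeine of the measured nitrogen-repressed transporters (left) and enzymes (right) in the mutant (circles) and in WT (squares), 1 array each. An asterisk marks genes called lower in the mutant by the slope test over all doses. All 23 enzymes lie lower in the mutant, whereas 4 transporters, among them GAP1, lie higher.

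Among the enzymes of nitrogen-source breakdown, all 23 measured genes had a lower value in the mutant at 9 mM. At least 2-fold lower were 20 (87.0%, against 12.5% of all genes). Their median was 0.72 in the mutant and 3.16 in WT, with a median difference of -2.56. The medians of the differences at 6 and 3 mM were -2.17 and -1.39. Of 21 tested, 12 were called lower and 0 higher, and with class-centring the count was again 12, with a median difference of -2.08. Of the 21 genes with all 6 values, 18 were lower in the mutant at each dose.

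The ASP3 genes encode the cell-wall asparaginase, which is induced by nitrogen limitation. Their copies are nearly identical, so the 4 probes may read the same RNA and are not separate genes in this respect. ASP3-3 had -0.05, 1.04 and 0.92 in the mutant over the rising doses, against 3.42, 5.06 and 6.27 in WT, a 9 mM difference of -5.35 and the largest drop below WT of any gene at that dose (limma adjusted p = 0.00153). ASP3-1, ASP3-2 and ASP3-4 had 9 mM values of 0.71, 1.37 and 1.90 in the mutant, against 4.64, 5.02 and 6.03 in WT. Each of the 4 probes was called lower in the mutant, and each of their mutant values was below each of their WT values at all doses.

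The allantoin genes lie side by side on chromosome IX, in the order DAL1, DAL4, DAL2, DCG1, DAL7, DAL3, and most of their products act in the uptake or breakdown of allantoin. At 9 mM the enzymes DAL1 (allantoinase), DAL2 (allantoicase), DAL7 (a malate synthase) and DAL3 (ureidoglycolate lyase) had -0.23, -0.23, 0.14 and 0.40 in the mutant. In WT the same 4 genes had 2.64, 3.16, 5.08 and 1.38. DCG1, which lies among them, had -0.41 in the mutant and 0.94 in WT. The mutant values of the cluster thus lay between -0.41 and 0.99 (DAL4), while 5 of its 6 WT values were above 1. The flanking genes YVH1, a phosphatase, and MGA2, a transcription factor, had differences of 1.70 and -0.78. DAL7 was called lower (0.88, 0.98 and 0.14 in the mutant against 2.83, 4.53 and 5.08 in WT over the rising doses, limma adjusted p = 0.00299), as were DAL4 and DAL1 (limma adjusted p = 0.00357 and 0.0169). DAL2 lacked 1 of the 6 values, DAL3 had limma adjusted p = 0.139, and the genes of the cluster outside the naming rule are given because the cluster was examined as a whole.

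Other enzymes of the group had the same sign. CPS1, a vacuolar carboxypeptidase, had -0.45, -0.25 and 1.26 in the mutant and 3.79, 4.47 and 4.53 in WT over the rising doses (limma adjusted p = 0.0148). APE1, the vacuolar aminopeptidase that is carried by the autophagy machinery, had 0.90 in the mutant and 3.81 in WT at 9 mM (limma adjusted p = 0.0148), but its class-centred test gave limma adjusted p = 0.0523. GDH2, which releases ammonium from glutamate, had 1.20 in the mutant and 3.22 in WT (limma adjusted p = 0.0249). PUT1, the proline oxidase, had 0.59 in the mutant and 2.79 in WT (limma adjusted p = 0.0295). At the other end of the group the vacuolar protease gene PRB1 was high in both strains, at 2.95 in the mutant and 3.18 in WT, and GLN1, the glutamine synthetase, had 1.04 in the mutant and 2.19 in WT (limma adjusted p = 0.186).

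Among 13 measured regulators of these genes, 3 (23.1%, against 12.5% of all genes) were at least 2-fold lower in the mutant. At least 2-fold higher was 1 (7.69%, against 12.3%), and 1 was called. GZF3, a GATA repressor, had -0.59, -1.79 and -1.86 in the mutant and 0.37, -0.64 and 1.65 in WT (limma adjusted p = 0.0295). Its probe lies in a class with low medians, and class-centred the 9 mM values were -0.68 in the mutant and 1.97 in WT, with limma adjusted p = 0.102. DAL80, the other GATA repressor, had -1.20 in the mutant and 0.32 in WT at 9 mM (limma adjusted p = 0.0598). The activator gene GAT1 had the opposite sign, at 0.08 in the mutant and -1.10 in WT, a difference of 1.18 with limma adjusted p = 0.0847.

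Genes next to nitrogen catabolism in metabolism were lower in the mutant for some members only. Of 16 amino acid breakdown genes, 5 (31.25%, against 12.5% of all genes) were at least 2-fold lower in the mutant and 0 higher, and 2 of 15 tested were called lower. SRY1, which degrades 3-hydroxyaspartate, had -0.59, 0.57 and 1.0 in the mutant and 1.79, 2.33 and 4.54 in WT (limma adjusted p = 0.0105). ARO80, the activator of aromatic amino acid breakdown, had 0.80 in the mutant and 2.94 in WT at 9 mM (limma adjusted p = 0.0303). Its targets ARO9 and ARO10, aromatic aminotransferase and decarboxylase, stood at 4.81 and 4.38 in the mutant and at 4.81 and 4.78 in WT. The activator gene therefore was 4.42-fold lower in the mutant at 9 mM, while the differences of both targets were -0.01 and -0.41. Class-centred, the differences were -2.10 for ARO80, -0.66 for ARO9 and -0.68 for ARO10.

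Vacuolar proteases and their inhibitors were 2-fold lower in 3 of 12 genes (25%, against 12.5% of all genes). The 2 called were CPS1 and APE1, already counted among the nitrogen-repressed enzymes. The SNZ, SNO and AAD families cover vitamin B6 synthesis and putative aryl-alcohol dehydrogenases. Of their 12 measured genes, 4 (33.3%) were at least 2-fold lower and 2 of 11 tested were called lower. AAD15 and AAD14 had 9 mM values of 1.16 and 0.67 in the mutant and 3.42 and 2.61 in WT, and these family members are close in sequence, so that their probes may not tell them apart. Of 16 phosphate starvation genes, 5 (31.25%) were at least 2-fold lower, 0 higher, and 3 were called lower, against 1 with class-centring. GIT1, the glycerophosphoinositol transporter, had 1.02 in the mutant and 3.31 in WT at 9 mM (limma adjusted p = 0.0445, and 0.0624 class-centred), while the phosphate transporter gene PHO84, named after its value was seen, had -1.72 in the mutant and -2.68 in WT. OPT2, DAL5 and the ASP3 probes thus had larger differences than any gene of these neighbouring groups, whose lowest difference was -3.54 (SRY1).

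Ribosome biogenesis ran the other way: these genes were below the array median in both strains, and less so in the mutant. The median of 83 measured genes was -0.86 in the mutant and -2.18 in WT, with median differences of 1.08, 1.25 and 1.35 at the rising doses. At least 2-fold higher in the mutant were 52 genes (62.7%, against 12.3% of all genes) and at least 2-fold lower 0. By the slope test 26 of 78 were called higher and 0 lower. With class-centring the median difference was 1.36 and 29 genes were called. Of the 83, 38 were shared lower, and 65 of the 78 with all 6 values were higher in the mutant at each dose.

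NHP2, a core protein of H/ACA small nucleolar ribonucleoproteins, had 0.52, 0.21 and 0.02 in the mutant over the rising doses, against -1.43, -0.67 and -2.94 in WT. The mutant values were near the array median and above all WT values. Its slope difference was 0.30 ± 0.07 (limma adjusted p = 0.0307), and it was 7.81-fold higher in the mutant at 9 mM. NOC2, which takes part in export of pre-ribosomes, had 0.25, 0.28 and 0.08 in the mutant and -1.34, -1.38 and -2.57 in WT (limma adjusted p = 0.0148). UTP13, a subunit of the small-subunit processome, had 0.28 in the mutant and -2.10 in WT at 9 mM (limma adjusted p = 0.0148), and RRS1, needed for large-subunit assembly, had -0.49 in the mutant and -2.94 in WT (limma adjusted p = 0.0167).

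PWP2, another processome subunit, was measured by 3 spots that disagreed: at 9 mM they gave -1.46, 3.42 and -0.33 in the mutant, while in WT they gave -1.74, -2.94 and -1.94. Its mean difference of 2.76 rests on 1 of them. A few members had WT ratios under 0.1, where a step in the last decimal of the ratio is large on the log scale, and were left out by the naming rule. Named after their values were seen, NOP7 and NOP4, both factors of large-subunit assembly, had 0.49 and -0.68 in the mutant at 9 mM and -3.46 and -4.68 in WT. At the lower end RRP5, which acts in both subunits' processing, had -1.65 in the mutant and -0.94 in WT, so the group was not uniform.

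Cytosolic ribosomal protein genes showed the same order with smaller differences. Over 134 genes the median was -0.75 in the mutant and -1.84 in WT, and the median difference was 0.86, 0.88 and 1.16 at the rising doses. Of these genes, 75 (56.0%, against 12.3% of all genes) were at least 2-fold higher in the mutant and 1 (0.746%, against 12.5%) was at least 2-fold lower. By the slope test 15 of 130 were called higher and 0 lower, and with class-centring 17. RPL22A was the 1 gene at least 2-fold lower, at -3.30 in the mutant and -2.10 in WT, and it was named after its value was seen. RPL8A had 0.34, -0.49 and -0.44 in the mutant and -0.73, -2.04 and -2.68 in WT (limma adjusted p = 0.0249), and RPS9A had -0.12, -0.12 and -0.02 in the mutant and -0.34, -1.64 and -2.27 in WT (limma adjusted p = 0.0295). RPL14B had 0.04 in the mutant and -2.18 in WT at 9 mM (limma adjusted p = 0.023). Each of these 3 genes has a near-identical paralogue whose RNA the probe may also bind, and class-centred none of them passed the test (limma adjusted p = 0.068, 0.135 and 0.065). Over the whole group the median class-centred difference was 1.04 and 71 genes stayed at least 2-fold higher.

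Subunits of RNA polymerases I and III, which transcribe ribosomal RNA and transfer RNA, had a median of -0.35 in the mutant and -1.27 in WT over 21 genes. At least 2-fold higher in the mutant were 10 of them (47.6%, against 12.3% of all genes), and 2 of 20 tested were called. RPA12, a polymerase I subunit, had 0.81, 0.09 and 0.02 in the mutant and -1.30, -2.12 and -1.87 in WT (limma adjusted p = 0.0295). RPC37, a polymerase III subunit, had 0.37 in the mutant and -1.14 in WT at 9 mM (limma adjusted p = 0.0482), and class-centred limma adjusted p = 0.113. Mitochondrial ribosomal proteins had a smaller shift, with medians of -0.14 in the mutant and -0.37 in WT. At least 2-fold higher were 18 of 68 genes (26.5%, against 12.3% of all genes) and at least 2-fold lower 3 (4.41%, against 12.5%). The slope test called 3 higher (1 with class-centring), against 1.94% of all tested genes.

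**Figure D4:**
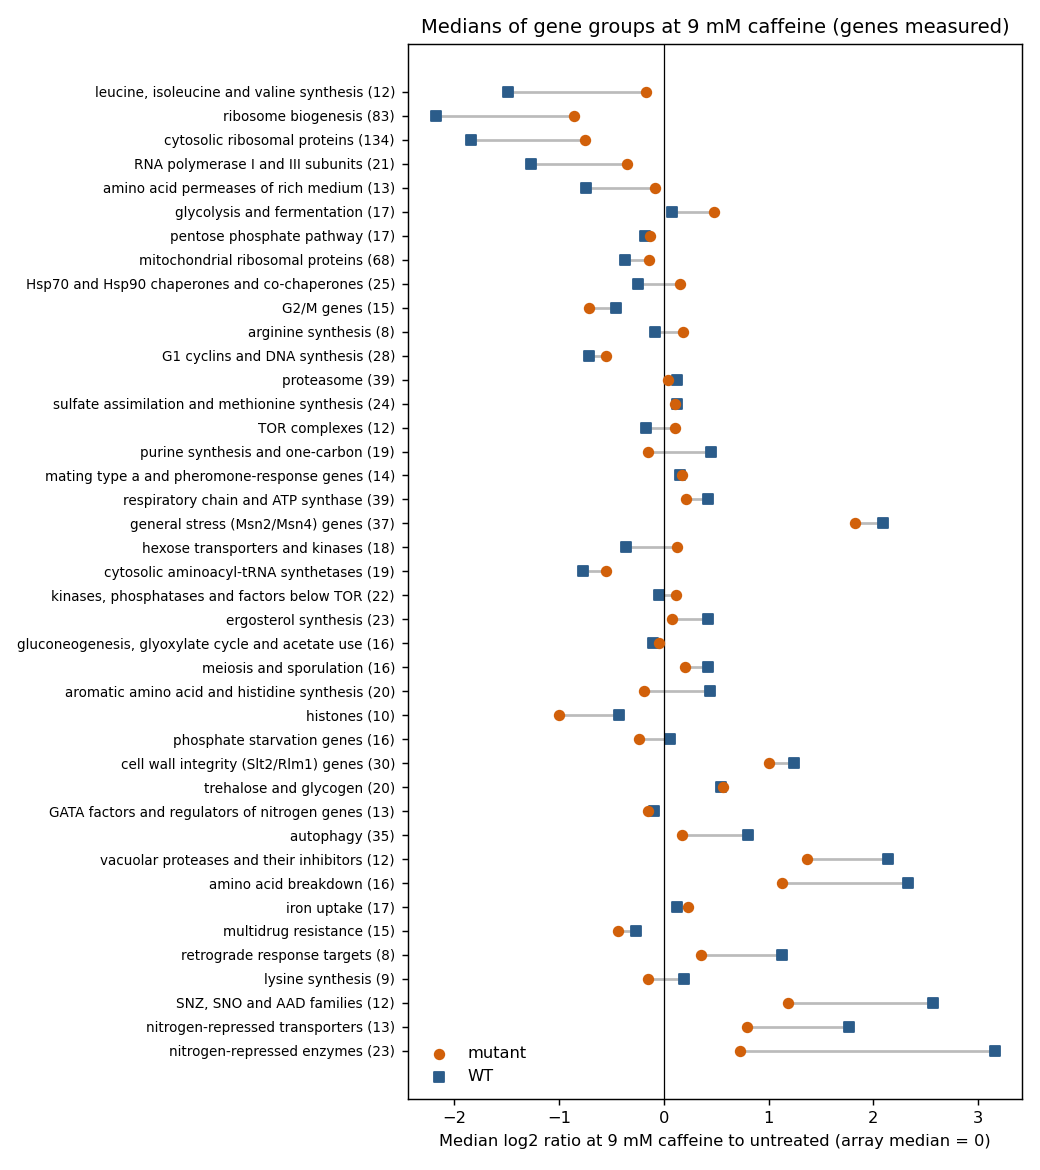
Median centred log2 ratio at 9 mM caffeine of each gene group with at least 8 measured genes (number in brackets) in the mutant (circles) and in WT (squares), ordered by the median of the gene-by-gene differences. Nitrogen-repressed enzymes are at the bottom (0.72 in the mutant, 3.16 in WT), and at the top are ribosome biogenesis (-0.86 in the mutant, -2.18 in WT) and branched-chain amino acid synthesis (-0.17 in the mutant, -1.49 in WT).

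Synthesis of leucine, isoleucine and valine had the largest median difference on the higher side, 1.53 over 12 genes, with medians of -0.17 in the mutant and -1.49 in WT. Of the 12, 8 (66.7%, against 12.3% of all genes) were at least 2-fold higher in the mutant, 0 lower, and 2 were called higher. The median difference was 0.58 at 6 mM and -0.08 at 3 mM, so the gap between strains was present at the upper doses. OAC1, the mitochondrial carrier that exports an intermediate of leucine synthesis, had 0.68, 1.18 and 1.15 in the mutant and -0.23, -1.38 and -1.02 in WT (limma adjusted p = 0.015). LEU9, an isopropylmalate synthase, had -0.38 in the mutant and -2.10 in WT at 9 mM (limma adjusted p = 0.0471, and 0.148 class-centred). BAT1 and ILV5, the mitochondrial branched-chain aminotransferase and the acetohydroxyacid reductoisomerase, had -0.13 and 0.52 in the mutant and -2.10 and -1.27 in WT at 9 mM, but were not called (limma adjusted p = 0.227 and 0.134). Lysine synthesis had a median difference of -0.73, with 1 of 9 genes at least 2-fold lower (11.1%, against 12.5% of all genes) and 0 higher.

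Permeases that take up amino acids in rich medium were listed after their values had been seen, because BAP3 was among the 12 highest differences of genes with ratios of at least 0.1 on both arrays. Of 13 measured, 5 (38.5%, against 12.3% of all genes) were at least 2-fold higher in the mutant, 0 lower, and 3 were called higher. BAP3, a branched-chain amino acid permease, had 0.67, 0.37 and 0.79 in the mutant and -0.23, -2.20 and -2.10 in WT (limma adjusted p = 0.0126). MUP1, the methionine permease, had 0.27, -0.14 and -0.79 in the mutant and -1.34, -2.20 and -3.94 in WT (limma adjusted p = 0.00895). TAT2, the tryptophan permease, had 0.45 in the mutant and -1.31 in WT at 9 mM (limma adjusted p = 0.0375). The arginine permease gene CAN1 and the lysine permease gene LYP1 had differences of -0.97 and -0.75, below 0.

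Purine metabolism was split between the directions. Of 19 genes, 4 were at least 2-fold higher (21.1%, against 12.3% of all genes) and 4 at least 2-fold lower (21.1%, against 12.5%). Of 18 tested, 4 were called higher and 1 lower. The 4 higher were IMD2, IMD3 and IMD4, the IMP dehydrogenase genes, and AAH1, adenine deaminase. IMD3 had 0.07, -0.47 and -0.65 in the mutant and -1.05, -1.76 and -2.68 in WT (limma adjusted p = 0.0295). IMD2, IMD4 and AAH1, whose WT ratios were under 0.1 and which were named after their values were seen, had -0.15, -0.62 and -2.02 in the mutant at 9 mM and -3.10, -3.68 and -3.94 in WT. The IMD genes are close in sequence, and their probes may cross-hybridise. ADE17, the final enzyme of IMP synthesis, was the 1 called lower, with -0.67, 0.23 and -0.06 in the mutant and 2.33, 2.46 and 1.93 in WT (limma adjusted p = 0.0456). GUA1, the GMP synthase gene, named after its values were seen, lay above WT at the lower doses and below it at 9 mM, with 0.16, -1.49 and -2.94 in the mutant and -2.53, -2.96 and -1.22 in WT.

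Among the remaining metabolic groups, arginine synthesis was mixed. Of 8 genes, 3 (37.5%, against 12.3% of all genes) were at least 2-fold higher in the mutant and 2 (25%, against 12.5%) lower. The 2 called were both higher. CPA1, a carbamoyl phosphate synthetase subunit, had 1.61 in the mutant and -0.94 in WT at 9 mM (limma adjusted p = 0.0483). ARG8, an acetylornithine aminotransferase, had 0.66 in the mutant and -1.10 in WT (limma adjusted p = 0.0378). The 2 lower genes were ARG2 and ORT1, the latter named after its value was seen, with differences of -1.72 and -1.46. MLS1, malate synthase of the glyoxylate cycle, had 0.67 in the mutant and 3.13 in WT (limma adjusted p = 0.0126). The sulfate transporter gene SUL2 had 1.22 in the mutant and -0.57 in WT (limma adjusted p = 0.034). Of the 24 genes of sulfate assimilation and methionine synthesis, 4 (16.7%) were at least 2-fold higher in the mutant. The 2 at least 2-fold lower (8.33%) were MET32 and MET8, with differences of -1.46 and -1.45. Class-centred, CPA1 and SUL2 no longer passed (limma adjusted p = 0.0926 and 0.0806), whereas ARG8 and MLS1 did (limma adjusted p = 0.0246 and 0.00818).

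General stress genes stood well above the array median in both strains. Over 37 measured Msn2 and Msn4 targets the median was 1.83 in the mutant and 2.10 in WT, and the median difference was 0.07, against 0.06 over all genes. Of these, 22 were shared higher. At least 2-fold lower in the mutant were 5 and at least 2-fold higher 6, shares near those of all genes (13.5% and 16.2%, against 12.5% and 12.3%). The slope test called 1 of 36 lower, against 2.32% of all tested genes. HSP12, a membrane-protecting heat shock protein, had 0.90, 4.25 and 5.34 in the mutant and 1.40, 3.71 and 4.38 in WT (limma adjusted p = 0.50). TFS1, an inhibitor of vacuolar carboxypeptidase Y, had 4.28 in the mutant and 5.19 in WT at 9 mM, and MSC1 had 4.05 in the mutant and 4.41 in WT. CTT1, the cytosolic catalase, had -0.75, -1.04 and 2.11 in the mutant and 0.39, 2.21 and 3.99 in WT (limma adjusted p = 0.0863). The 1 called gene was MOH1, at 1.83 in the mutant and 3.51 in WT (limma adjusted p = 0.0365, and 0.0674 class-centred). At 6 and 3 mM the median differences of the group were -0.64 and -0.31.

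Cell wall integrity genes had medians of 1.001 in the mutant and 1.24 in WT over 30 genes. At least 2-fold lower were 4 (13.3%, against 12.5% of all genes) and at least 2-fold higher 2 (6.67%, against 12.3%), with 0 of 29 tested called. Of the 30 genes, 14 were shared higher. NCW2, a cell wall protein gene, had the lowest difference of the group (1.94 in the mutant, 3.17 in WT, limma adjusted p = 0.091), and CIS3, a structural wall protein gene, the highest (-0.90 in the mutant, -2.57 in WT). The median differences were -0.74 and -0.71 at 6 and 3 mM and -0.24 at 9 mM. Retrograde response genes answer to mitochondrial dysfunction and are also under TOR control. Of 8, 2 (25%) were at least 2-fold lower, 1 (12.5%) was at least 2-fold higher and 0 were called. CIT2, the peroxisomal citrate synthase and the usual reporter of that pathway, had 1.06, 1.47 and 2.15 in the mutant and 3.16, 4.58 and 3.62 in WT (limma adjusted p = 0.0929). Each mutant value of CIT2 was below each WT value, although the gene did not pass the test.

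Among shared higher genes the 6 with the largest smaller value were HSP12, ARO9, ARO10, TFS1, MSC1 and CHA1. CHA1, the catabolic serine and threonine deaminase, had 2.41, 3.42 and 3.91 in the mutant and 3.81, 4.80 and 5.21 in WT (limma adjusted p = 0.272). Among shared lower genes the same rule gave ARG82, LTE1, QRI7, RFC1, UBC1 and UPA2, each between -2.79 and -2.41 in the mutant and between -2.94 and -2.36 in WT. All 6 have probes in classes whose medians on both arrays were below 0. Class-centred, UBC1, a ubiquitin-conjugating enzyme, was at -1.16 in the mutant and -2.04 in WT, and ARG82, an inositol polyphosphate kinase, at -1.54 in the mutant and -1.80 in WT, and all 6 stayed 2-fold lower in both strains.

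**Figure D5:**
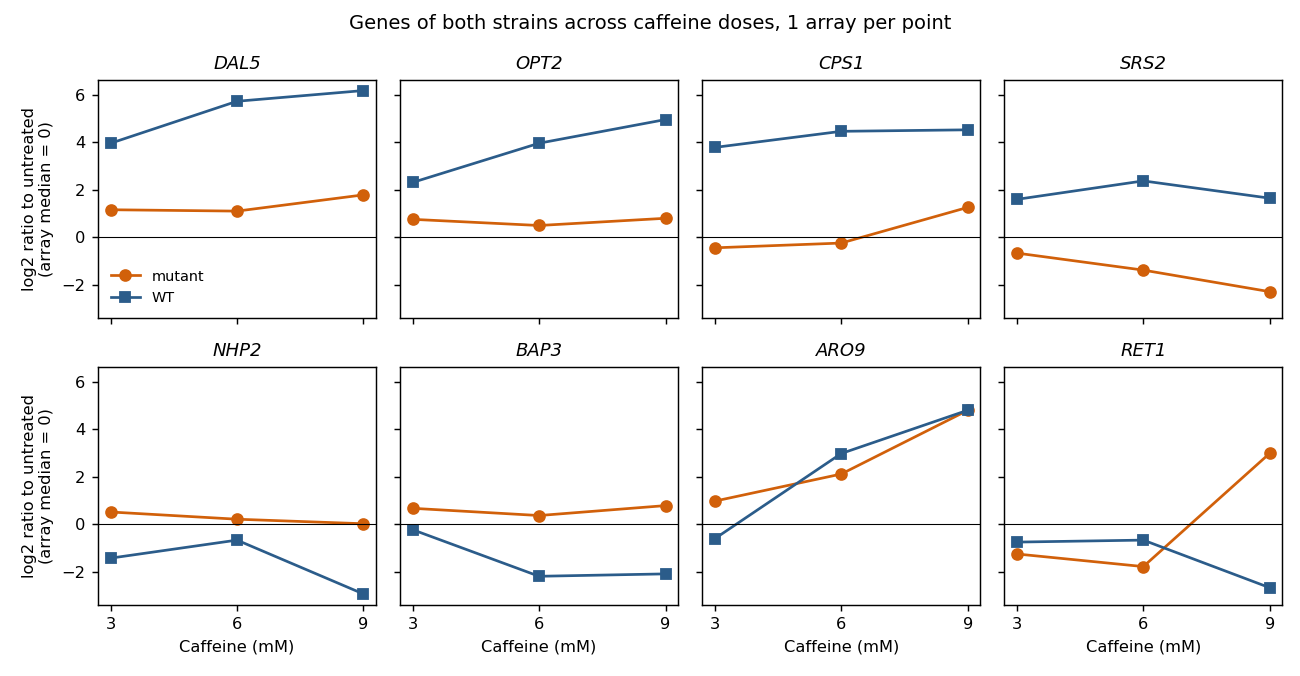
Centred log2 ratio to untreated cells of 8 genes at 3, 6 and 9 mM caffeine in the mutant (circles) and in WT (squares), 1 array per point. DAL5, OPT2, CPS1 and SRS2 are lower in the mutant at each dose, and NHP2 and BAP3 higher at each dose. ARO9 meets at 4.81 in both strains at 9 mM. RET1 is lower in the mutant at 3 and 6 mM and higher at 9 mM. No value shown is class-centred. Class-centred at 9 mM, ARO9 was at 3.82 in the mutant and 4.47 in WT.

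Several genes outside the nitrogen lists were comparably far below WT. BSC5 had -0.34, -0.52 and -0.46 in the mutant and 1.74, 1.76 and 3.50 in WT (limma adjusted p = 0.00299). VBA1, a vacuolar permease for basic amino acids, had 0.14, -0.29 and 0.27 in the mutant and 1.47, 3.58 and 4.19 in WT (limma adjusted p = 0.00153). DIT2, an enzyme of spore wall synthesis, had 0.11, -0.39 and 0.00 in the mutant and 0.63, 0.58 and 3.33 in WT (limma adjusted p = 0.0358, and 0.0827 class-centred). IPK1, an inositol phosphate kinase, had -0.46 in the mutant and 2.63 in WT at 9 mM (limma adjusted p = 0.0148). BSC5, VBA1, IPK1, DIT2, DAL7 and DAL2 were the WT-only higher genes with the largest difference. For the WT-only lower class the same rule gave NHP2, NOC2, UTP13, RRS1, KEL3 and SKG3, of which the first 4 act in ribosome assembly. Class-centred, BSC5, VBA1, IPK1, DIT2, RRS1 and SKG3 left their class and lay between the classes, while DAL7, DAL2, NHP2, NOC2, UTP13 and KEL3 kept theirs. KEL3, a kelch-repeat protein, had 0.18 in the mutant and -2.46 in WT (limma adjusted p = 0.0113), while SKG3 had -0.38 in the mutant and -2.81 in WT and was not called (limma adjusted p = 0.472).

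Genes on opposite sides of the median were few, and most of them changed class with class-centring. SRS2, a DNA helicase, had -0.67, -1.39 and -2.30 in the mutant and 1.60, 2.38 and 1.65 in WT (limma adjusted p = 0.00299). Class-centred it was at -0.97 in the mutant and 2.59 in WT at 9 mM, with limma adjusted p = 0.00814. KHA1, a potassium and proton antiporter, had -0.97, -1.34 and -1.58 in the mutant and -0.13, -0.16 and 1.97 in WT (limma adjusted p = 0.0249, and 0.0746 class-centred). MSB3, a GTPase-activating protein, had -1.20 in the mutant and 2.41 in WT at 9 mM (limma adjusted p = 0.00895), and class-centred -0.02 in the mutant and 2.72 in WT. Of the 12 genes that were lower in the mutant and higher in WT, 1 kept that class after class-centring, namely NIT2, at -1.28 in the mutant and 1.52 in WT. On the other side, 2 of the 4 genes kept it, RET1 and NEW1, while MTC1 and OAC1 moved to WT-only lower.

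The mutant-only lower class was led by RPB4, a subunit of RNA polymerase II, LSM1, an mRNA decapping factor, CUE2, TAF13, a TFIID subunit, PRM10 and SPO12. Class-centred, PRM10 kept that class, TAF13 moved to the opposite class, and RPB4, LSM1, CUE2 and SPO12 lay between the classes. RPB4 had -1.18, -1.86 and -2.11 in the mutant and 0.29, 0.04 and 0.42 in WT (limma adjusted p = 0.0148), and LSM1 had -1.07, -1.44 and -2.20 in the mutant and 0.61, -0.10 and 0.30 in WT (limma adjusted p = 0.0178). The mutant values of both genes were below every WT value. Class-centred at 9 mM, RPB4 was at -1.04 in the mutant and 0.58 in WT, LSM1 at -1.18 in the mutant and 0.73 in WT, and TAF13 at -1.12 in the mutant and 1.32 in WT. RPB4 and TAF13 still passed the class-centred test (limma adjusted p = 0.0444 and 0.0252) and LSM1 did not (limma adjusted p = 0.0813). By their systematic names RPB4 (YJL140W), LSM1 (YJL124C) and PRM10 (YJL108C) lie on the left arm of chromosome X. So do NIT2 (YJL126W), GZF3 (YJL110C), KHA1 (YJL094C) and SRS2 (YJL092W) of the opposite class. Other genes of that arm were higher in the mutant, among them MTC1 (YJL123C, 2.54) and MRPL49 (YJL096W, 2.59). A part of position was not tested.

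Among the highest differences at 9 mM, those of NHP2, NOC2, BAP3 and PWP2, given above, were above 0 at each dose. Several others were of another kind, with a mutant value that was high at 9 mM and not at the lower doses measured. RET1, the second largest subunit of RNA polymerase III, had the highest of all, 5.68, with -1.26, -1.79 and 3.00 in the mutant and -0.75, -0.67 and -2.68 in WT. Its differences at 6 and 3 mM were -1.12 and -0.50, and it was not called (limma adjusted p = 0.164). The RET1 probe lies in a class whose medians at 3 and 6 mM were -0.90 and -1.32 in the mutant and -0.11 and -0.14 in WT. Its lower mutant values at those doses are therefore not free of the probe number pattern. Class-centred, its 9 mM difference was 5.46. HRK1, a kinase that regulates the plasma membrane proton pump, had -0.10 at 3 mM and 3.89 at 9 mM in the mutant, against 1.14, 0.37 and -0.16 in WT, and had no value in the mutant at 6 mM. SNP1, AIM32, CDC34 and TOP1 had 3.13, 2.84, 3.08 and 2.56 in the mutant at 9 mM, while at 6 mM they had 0.63, -0.79, 0.72 and -0.58 in the mutant. In WT at 9 mM these 4 genes were at -0.31, -0.34, 0.24 and -0.16. SNP1, AIM32, CDC34, TOP1, HRK1 and ECM31 formed the leading 6 of the mutant-only higher class, and none of them was called. Class-centred, AIM32 and CDC34 kept that class, while SNP1, TOP1, HRK1 and ECM31 lay between the classes. GRE3, an aldose reductase among the stress genes, behaved likewise, with -0.26, -0.25 and 2.60 in the mutant and -0.05, 0.67 and 0.06 in WT (limma adjusted p = 0.369). Each of these mutant values at 9 mM rests on 1 array.

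Among genes with ratios of at least 0.1 on both arrays, the 12 highest and the 12 lowest differences were set against the fit to 3 and 6 mM alone. In that fit 3 of the 10 tested highest were called higher, BAP3, NOC2 and PWP2 (limma adjusted p = 0.0102, 0.0223 and 0.0146), and HRK1 and NEW1 lacked a value. Of the 12 lowest, 11 were called lower, the exception being KHA1 (limma adjusted p = 0.117). Over all genes the same fit called 7.89% lower and 4.03% higher. It was not class-centred, and the untreated RNA of a strain may be common to all its arrays. The ASP3 probes among the 12 lowest may read the same RNA, so they do not count as separate genes. The 12 lowest were ASP3-3, DAL7, DAL5, OPT2, ASP3-4, BSC5, SRS2, ASP3-1, VBA1, ASP3-2, MSB3 and KHA1.

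TOR1 and TOR2 differed by less than 2-fold at 9 mM, while TOR2, before class-centring, was just over 2-fold lower in the mutant at 3 and 6 mM. The TOR2 probe lies in a class whose medians at 3 and 6 mM were -1 and -1.60 in the mutant and -0.32 and -0.32 in WT. The lower TOR2 values of the mutant at those doses are therefore not free of the probe number pattern. TOR1 had 0.36, 0.24 and 0.37 in the mutant and -0.25, -0.06 and -0.06 in WT (limma adjusted p = 0.534), and TOR2 had -1.14, -1.20 and -0.44 in the mutant and -0.13, -0.10 and -0.91 in WT (limma adjusted p = 0.73). Of 12 measured genes of TOR complexes 1 and 2, 0 were at least 2-fold lower or higher in the mutant at 9 mM, differences ran from -0.58 to 0.59, and 0 were called. KOG1, the defining subunit of TOR complex 1, had -1.94 in the mutant and -1.36 in WT, and class-centred -0.92 in the mutant and -0.93 in WT. A probe for TOR1 reads both alleles and so cannot check which strain was on which array.

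The mating type of the cells could not be checked against marker levels, since log ratios within a strain carry no level. Of 14 genes of mating type a and of the pheromone response, 3 (21.4%) were at least 2-fold lower in the mutant and 1 (7.14%) at least 2-fold higher. Of 5 alpha-specific genes 2 (40%) were lower and 0 higher, with 0 called in either list. Over all genes 12.5% were lower and 12.3% higher. STE3, the receptor of a factor, had 0.38 in the mutant and 1.88 in WT at 9 mM (limma adjusted p = 0.0525). Of 16 meiosis and sporulation genes, 3 (18.75%) were at least 2-fold lower and 1 of 11 tested was called, DIT2.

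Groups whose median difference lay within 0.3 of 0 at 9 mM included the proteasome (0.21 over 39 genes, 2 called lower), the respiratory chain (0.08 over 39, 1 called lower), ergosterol synthesis (0.01 over 23, 1 called lower) and the hexose transporters (0.04 over 18, 0 called). SCL1, a proteasome core subunit, had -0.81, -1.86 and -2.20 in the mutant and 0.91, 0.37 and -0.20 in WT (limma adjusted p = 0.0249, and 0.0813 class-centred). RIP1, the Rieske protein of the respiratory chain, and ERG27, an ergosterol enzyme, were the called members of their groups, and neither passed the class-centred test (limma adjusted p = 0.0658 and 0.0776). Chaperones had 7 of 25 genes (28%) at least 2-fold higher and 2 (8%) lower with 0 called, and histones had 1 of 10 (10%) lower with 0 called. Autophagy genes had 6 of 35 (17.1%) at least 2-fold lower and 0 higher, with a median difference of -0.32. Over all genes the shares were 12.5% lower and 12.3% higher, and the slope test called 2.32% of all tested genes lower and 1.94% higher.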

How the data were processed

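Per the labels' protocols, polyadenylated RNA was hybridised to 6 two-colour arrays, untreated in Cy3 and caffeine-treated in Cy5, with no dye exchange. The authors deposited log2 ratios: 2 to the power of each was a ratio with 2 decimals (100% of values, tolerance 0.0001). The sources used here give no background correction, spot filter or normalization. The lowest ratios were 0.06 (mutant 9 mM) and 0.02 (WT 9 mM). Signal over background is unknown, as no scanner file was used. The number of arrays limits the precision.

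Of 6214 probes, 5596 had 1 symbol in the platform annotation (all matched in RefSeq R64), 0 several, and 618 were not listed. Spots of a gene were averaged, arrays were centred on the median of named genes, and missing values were left missing. limma 3.58.1 in R 4.3.3 (lmFit, eBayes) fitted a slope on dose per strain with no intercept, 2-sided, with 4 residual and 9.69 prior degrees of freedom. In simulated data for this slope difference (5212 genes, 50 per size), 4%, 64%, 98% and 100% of genes changed by 1, 2, 3 and 4 log2 units at 9 mM were called, with 7 false calls. The simulation used straight slopes through 0 and independent noise on each array. It held no shared untreated RNA and no probe number pattern, so these rates may be better than those of the real data.

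The naming rule took, among genes with a standard symbol and ratios of at least 0.1 on both 9 mM arrays, the 12 lowest and 12 highest differences, 6 per class, up to 4 per list, TOR1 and TOR2. Members and the 42 lists were chosen with earlier results of these data known, and 1 list (rich-medium permeases) was added afterwards. Alternatives covered centring, scaling, quantile normalization, low ratios, genes and spots used, thresholds, model, probe number classes and arrays left out.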

Additional observations from a re-analysis of the deposited data

Results flagged for a closer look

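The test of the strain difference in slope over the 3 doses passed for 121 genes lower and 101 genes higher in the mutant, and each named gene among them is listed here because its response differed between the strains by that test (limma adjusted p below 0.05). Slope differences, mutant minus WT, are in log2 units per mM caffeine.

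Among nitrogen-repressed genes the slope differences were -0.67 for ASP3-2, -0.67 for ASP3-1, -0.66 for ASP3-3, -0.60 for DAL5, -0.59 for ASP3-4, -0.57 for DAL7, -0.56 for CPS1, -0.50 for OPT2, -0.43 for APE1, -0.41 for DAL4, -0.34 for UGA4 and -0.33 for GZF3. In amino acid, purine and carbon metabolism they were -0.39 for SRY1, -0.32 for ADE17, -0.31 for MLS1, -0.25 for HIS2 and -0.23 for ARO80. The vacuolar permease VBA1 had -0.50, the phosphate genes GIT1 and PHO12 had -0.35 and -0.23, and the AAD genes AAD14 and AAD15 had -0.38 and -0.28.

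Other genes lower in the mutant were SRS2 with -0.52, BSC5 with -0.44, MSB3 with -0.36, KHA1 with -0.33, IPK1, TAF13, RPB4 and PRM10 with -0.31 each, and DIT2 with -0.30. Smaller differences were found for RIP1 and SCL1 (-0.29 each), LSM1 and CUE2 (-0.28 each), MOH1 (-0.24), ATG26 (-0.22) and ERG27 (-0.21).

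Among genes of ribosome synthesis higher in the mutant, RPL14B and UTP13 had 0.33 each, PWP2 had 0.32, NOC2 had 0.31, NHP2 and RRS1 had 0.30 each, RPA12 had 0.29, RPL8A had 0.26, MRPL20 had 0.25, RPS9A had 0.24 and MRPS18 had 0.22. Transport and metabolism gave 0.35 for BAP3, 0.30 for OAC1, 0.29 for SUL2, 0.28 for CPA1, 0.23 for IMD3 and 0.22 for ARG8. The remaining genes were KEL3 with 0.33, MTC1 with 0.29 and POL1 with 0.22. Class-centring by probe number kept 37 of these 58 genes past the threshold.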

How the results depend on the processing

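With the values as deposited, shared higher and shared lower genes numbered 182 and 1001, mutant-only higher and lower genes 36 and 348, opposite genes lower in the mutant 30, and slopes called higher 48. The split of 2-fold differences then moved to 880 lower and 524 higher. Class-centring by probe number, chosen after seeing the data, gave 247 shared lower, 63 mutant-only higher, 71 mutant-only lower, 10 opposite genes higher and 4 opposite genes lower in the mutant. A 1.5-fold limit gave 1284 genes lower and 1391 higher, and a 3-fold limit 245 and 229. With 3-fold in the changed strain, the classes held 148 shared higher, 163 shared lower, 24 mutant-only higher, 42 mutant-only lower, 76 WT-only higher, 103 WT-only lower, and 1 and 4 opposite genes higher and lower in the mutant. Centring on all probes, equal scale, quantile normalization, low ratios left out, genes on all arrays and genes with 1 spot kept each count at 9 mM within 1.5 times.

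For the slope test, limma called 0 genes lower and 0 higher when all arrays were scaled to the same median absolute deviation (712 at unadjusted p below 0.05), a scaling that also removes the growth of the spread with dose. Scaling the strains to each other within each dose, chosen after seeing the data, called 103 lower and 66 higher. The mean of the 3 matched differences called 318 and 270. Leaving out 1 array gave 16 to 200 genes lower and 3 to 136 higher, the fewest without the WT 6 mM array (16 and 3). The counts were 54 lower and 16 higher without the mutant 3 mM array, 52 and 25 without the mutant 6 mM array, 200 and 72 without the mutant 9 mM array, and 88 and 50 without the WT 3 mM array. Without both 9 mM arrays 411 were lower and 210 higher, and 44 of the 58 named calls held. No called slope of a named gene changed sign under any of these alternatives. Smaller 9 mM differences did: 13 of 207 genes (main values between -0.79 and 0.59) and 14 of 43 list medians (between -0.52 and 0.11) changed sign under at least 1 centring, scaling or normalization, 7 genes and 6 lists of them with class-centring. The labels give no replicate numbers, so no replicate block could be fitted, and the matched differences pair the strains by dose alone. With 4 residual degrees of freedom, differences near 1 log2 unit at 9 mM were seldom called in simulated data (4%).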

Other observations

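Groups not described above had small or mixed differences at 9 mM. Over all genes, 12.5% were at least 2-fold lower in the mutant and 12.3% higher. Glycolysis and fermentation genes had a median of 0.48 in the mutant and 0.07 in WT, with 4 of 17 (23.5%) at least 2-fold higher in the mutant, 1 (5.88%) lower and 0 called. Pentose phosphate genes had 5 of 17 (29.4%) at least 2-fold higher, 0 lower and 1 called higher. Iron uptake genes had 3 of 17 (17.6%) at least 2-fold lower, 0 higher and 0 called, and multidrug resistance genes had 4 of 15 (26.7%) lower, 0 higher and 0 called. Aminoacyl-tRNA synthetases had medians of -0.55 in the mutant and -0.77 in WT, with 1 of 19 (5.26%) lower, 3 (15.8%) higher and 0 called.

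The gap between the strains depended on which array was used to pick genes. The 224 genes above 2 in WT had a median of 1.56 in the mutant and 2.54 in WT, and the 287 genes below -2 in WT had -1.35 in the mutant and -2.46 in WT. Picked on the mutant array, the 123 genes above 2 had 2.40 in the mutant and 2.34 in WT, and the 134 genes below -2 had -2.30 in the mutant and -1.81 in WT. Genes picked for an extreme value on 1 array are expected to be less extreme on another, so these medians describe the arrays and were not tested.

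The 2 spots of AAD6 gave 9 mM differences of -1.48 and -0.70, and the 3 spots of PWP2 gave 0.28, 1.62 and 6.37.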
